A study of Mus musculus with 24 samples.

Results

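RNA-seq of Tet2-/- and wild-type (WT) mouse embryonic stem cells (ESCs) was compared after 6 days without leukemia inhibitory factor (D6). These are the 5 libraries that the labels give to Tet2-/- (2) and to WT (3) at this time, of 24 libraries in the series. Every clone came from 1 parental clone of an ESC line labelled 129 derived (129/SVj in the study's methods) with eGFP knocked in at Pou5f1, grown on gelatin without feeder cells. WT cells carried no Tet edit, and Tet2-/- cells had been edited with Cas9 in Tet2 only. For D6, cells were plated at low density with leukemia inhibitory factor (LIF), and medium lacking it was given from the next day until RNA was taken. Each replicate is 1 clone, so the p-values describe the spread between clones of 1 parental line. The other 7 D6 libraries (Tet1-/-, DKO and TKO clones) entered the filter on low counts, the scaling and the estimate of the spread. The filter kept 15435 genes with them and 14804 with the Tet2-/- and WT libraries alone. The 5 undifferentiated (D0) libraries of the same Tet2-/- and WT clones showed which differences stood before LIF was withdrawn.

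TET proteins oxidize 5-methylcytosine in DNA to 5-hydroxymethylcytosine and further products, a step toward removal of the methyl mark, and Tet1 and Tet2 are the members highly expressed in ESCs. LIF acts through its receptor and STAT3 to hold mouse ESCs in the naive pluripotent state. After its withdrawal the cells pass through epiblast-like states and form a mixture of mesoderm, endoderm, ectoderm and extraembryonic cell types.

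The Tet2 guide and the edited alleles define the knockout and are shown first. The target lies on chromosome 3 at 133148610 to 133148641 of mm9, on the minus strand, within a protein-coding exon of Tet2 (exon 3 of transcript Tet2-202 in GENCODE vM1). In the target, capitals mark the PAM, and in the allele listed for each clone, capitals mark the deleted bases.
Tet2 target: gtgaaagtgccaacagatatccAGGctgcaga
Tet2 KO Clone 1: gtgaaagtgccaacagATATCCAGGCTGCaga
Tet2 KO Clone 2: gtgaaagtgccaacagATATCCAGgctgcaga
The deletions remove 13 and 8 bases and start at base 17 of the 32 bases shown, and neither length is a multiple of 3. The study lists 1 allele for each clone, and which library came from which listed clone was not taken from the labels.

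At D6, Tet2 RNA stood at 17.1, 13.7 and 12.9 CPM (counts scaled to the size of the library) in WT replicates 1 to 3 and at 16.7 and 17.5 CPM in Tet2-/- replicates 1 and 2. The libraries of both groups overlapped (log2 fold change 0.23, adjusted p = 0.506). Every adjusted p is Benjamini-Hochberg adjusted over all tested genes and comes from edgeR's quasi-likelihood test, unless another is named. SE is an approximate standard error, the absolute log2 fold change divided by the square root of the F statistic of that test. At D0 the same gene had 88.9, 89 and 83.4 CPM in WT and 19.6 and 21.6 in Tet2-/-, with no overlap and a log2 fold change of -2.08 (adjusted p = 0.0299). Short deletions need not remove a transcript, so this count does not check the edit. Tet1, its paralog, had 134, 121 and 114 CPM in WT and 335 and 300.3 in Tet2-/- at D6. Both knockout libraries lay above all WT libraries, but the test was not passed (log2 fold change 1.37 ± 0.498 SE, adjusted p = 0.0602). It was passed without the filter (adjusted p = 0.0408), with DESeq2 (0.0165) and with the Tet2-/- and WT libraries alone (0.00169). Tet3 overlapped between groups, with 14.3, 20.5 and 22.1 CPM in WT and 16.1 and 16.8 in Tet2-/- (adjusted p = 0.468).

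The 5 libraries held 18400463 to 33991489 counts, and the floor of 3 counts, up to which a gene without a count may lie, corresponds to 0.0909 to 0.161 CPM (counting error only). WT replicate 1 stood apart from the other WT clones. The SD of the log2 difference over all tested genes was 0.480 and 0.420 between it and WT replicates 2 and 3, 0.255 between those, and 0.180 between the Tet2-/- clones. It was nearest to Tet2-/- among WT libraries for 1098 of the 1459 genes called lower and 530 of the 742 called higher. List counts with a call are therefore also given without each WT clone. Those counts follow the order of WT replicates 1, 2 and 3 and, within each, that of higher and lower in the full count. The summed level of 6 markers of pluripotent cells (Pou5f1, Nanog, Sox2, Esrrb, Zfp42 and Sall4) was 1884, 1128 and 1182 CPM in WT and 2341 and 2513 CPM in Tet2-/-. The summed level of 4 mesoderm markers was 178, 461 and 654 CPM in WT and 21.6 and 11.4 CPM in Tet2-/-. Endoderm markers (5 genes, of which Afp had 0 to 3 counts per library and Ttr 4, 15 and 9 counts in WT and 0 in both Tet2-/- libraries) reached 50.8, 235 and 174 CPM in WT and 6.73 and 6.85 CPM in Tet2-/-. In each of these sums WT replicate 1 lay between the other WT clones and Tet2-/-. Ptprc, the pan-leukocyte antigen, had 0 to 2 counts in every library, and Tpbpa of placental trophoblast had none. In bulk RNA, fewer cells of a type cannot be told apart from less RNA per cell.

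Edited clones also differed from WT by chromosome. For chromosome 8, the median log2 difference from the WT mean over 505 genes with a mean of at least 10 CPM was 0.37 and 0.44 in the Tet2-/- replicates and -0.14, 0.04 and 0.11 in the WT replicates at D6. At D0, over the 470 genes past the same limit, the medians were 0.27 and 0.30 in the Tet2-/- clones. Of the genes given with values, Tubb3, Cdh3, Sfrp1 and Mt1 (called higher), Hand2 and Nrp1 (called lower) and Zfp42 and Cdh1 (not called) lie on chromosome 8. Sox1 (called higher) is on the same chromosome in the RefSeq gene table (GRCm38.p6) and is not in the mm9 counts by chromosome given here. Chromosome 6, which carries Nanog, Dppa3 and Tet3, had medians of 0.15 and 0.17 in Tet2-/- at D6, against -0.01, -0.10 and 0.11 in WT. At D0 these were 0.20 and 0.26, against 0.12, -0.01 and -0.10. Of 735 tested genes on chromosome 8, 10.6% were called higher and 5.17% lower, against 4.49% and 9.97% of genes elsewhere. Chromosome 11 had medians of -0.17 and -0.23 in Tet2-/- at D6, but WT replicate 2 stood at -0.15, and 12.6% of its genes were called lower. The largest share called lower among the autosomes and X, 13.8% of 551 genes, was on chromosome X. Its medians of -0.01 and -0.09 in Tet2-/- overlapped with 0.02, 0.04 and -0.07 in WT. Over the genes of all chromosomes the 5 medians lay between -0.00467 and 0.0159. Of 5 tested Y-linked genes, a list written after the values were seen, 3 were called lower and 0 higher (2 and 0, 3 and 0, then 2 and 0 without each WT clone). Uty, a Y-linked relative of the histone demethylase Kdm6a, had 32.8, 8.17 and 19.2 CPM in WT and 0.788 and 0 in Tet2-/- (log2 fold change -5.58 ± 1.43 SE, adjusted p = 0.0178), and Ddx3y, an RNA helicase, changed alike (log2 fold change -5.85, adjusted p = 0.0185). WT clones differed among themselves by several fold, and at D0, where WT replicate 1 is the clone of D6 WT replicate 2 and WT replicate 2 that of D6 WT replicate 1, Uty was at 1.61, 42.5 and 6.31 CPM in WT and 0.120 and 0.0272 in Tet2-/-. The part of chromosome content in the results was not tested, and it cannot be told apart from the edit, since both Tet2-/- clones share it.

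**Figure D1:**
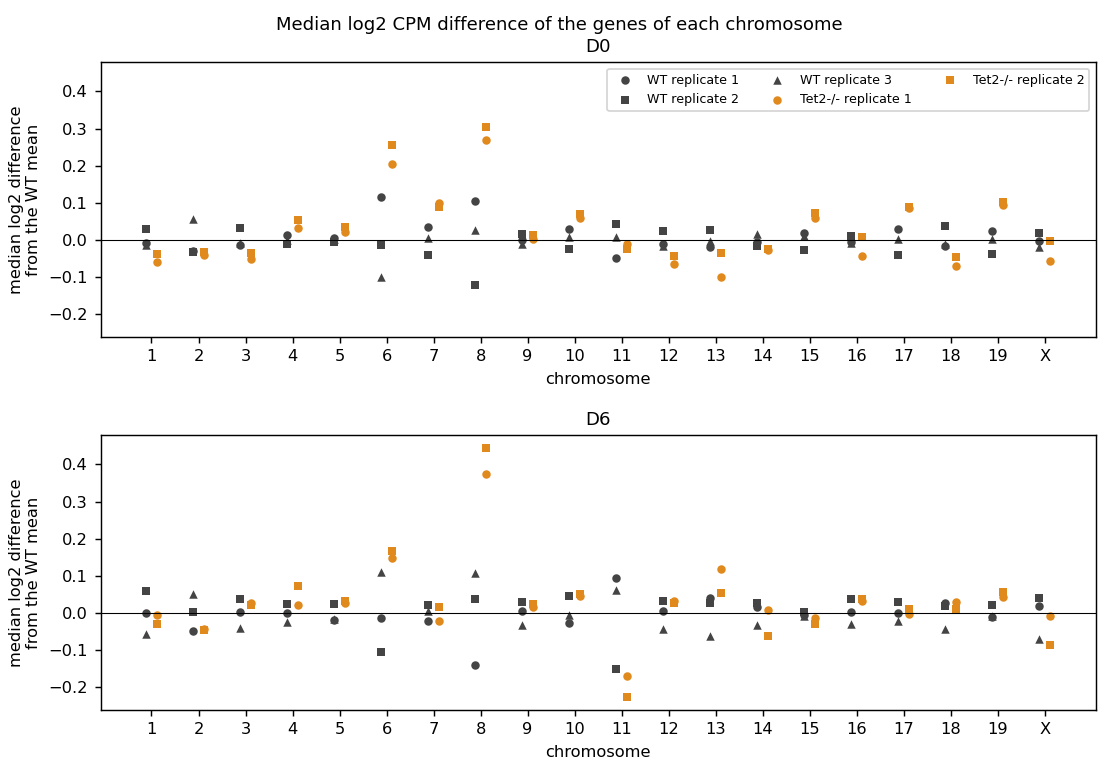
Median difference of log2(CPM + 1) from the WT mean of the same day over the genes of each chromosome, with 1 symbol per library (replicate numbers name libraries of that day; grey WT, orange Tet2-/-). Both Tet2-/- libraries lie above all WT libraries on chromosome 8 at both days, and by less on chromosomes 5, 6, 10 and 19, whereas the chromosome 11 values of Tet2-/- at D6 lie next to WT replicate 2.

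Of 15435 genes tested at D6, 742 (4.81%) were called higher and 1459 (9.45%) lower in Tet2-/-, at an adjusted p under 0.05 and a change over 2-fold, 14.3% in either direction. All 742 of the former and 1453 of the latter had no overlap between the WT and the Tet2-/- libraries, which held for 30.0% (higher) and 32.9% (lower) of all genes tested. Without WT replicate 1 the counts were 1037 and 1598. They depended on the Tet2-/- clones being 2: without replicate 1 they fell to 123 and 181 and without replicate 2 to 0 and 0 (edgeR), where the lone clone is assumed to vary like the other groups and 766 and 1435 genes passed an unadjusted p under 0.05 with the same fold. Without WT replicate 3 they were 406 and 942, and without WT replicate 2, 497 and 1026. Of the called genes given with values, 15 were no longer called without WT replicate 2 (Nr0b1, Foxd3, Pou3f1, Eomes, Acta2, Myh9, Foxa2, Cdh3, Lefty1, Fgf15, Hoxd9, Isg15, Igtp, Dnmt3l and Ddx4) and 17 without WT replicate 3 (Nr0b1, Nr5a2, Dppa3, Foxd3, Pou3f1, Eomes, Acta2, Cdh3, Sox1, Lefty1, Fgf15, Snai1, Hoxd9, Isg15, Igtp, Dnmt3l and Ddx4). To describe what changed, 39 lists of lineage, pathway and housekeeping genes were counted; a share of a list is read against the 4.81% and 9.45% of all genes. The median log2 fold change of a list, over the members that passed the filter on low counts (those tested), is set beside -0.03 over all tested genes. Members that passed the filter only through high WT counts had to differ, so these counts describe the lists and test nothing.

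**Figure D2:**
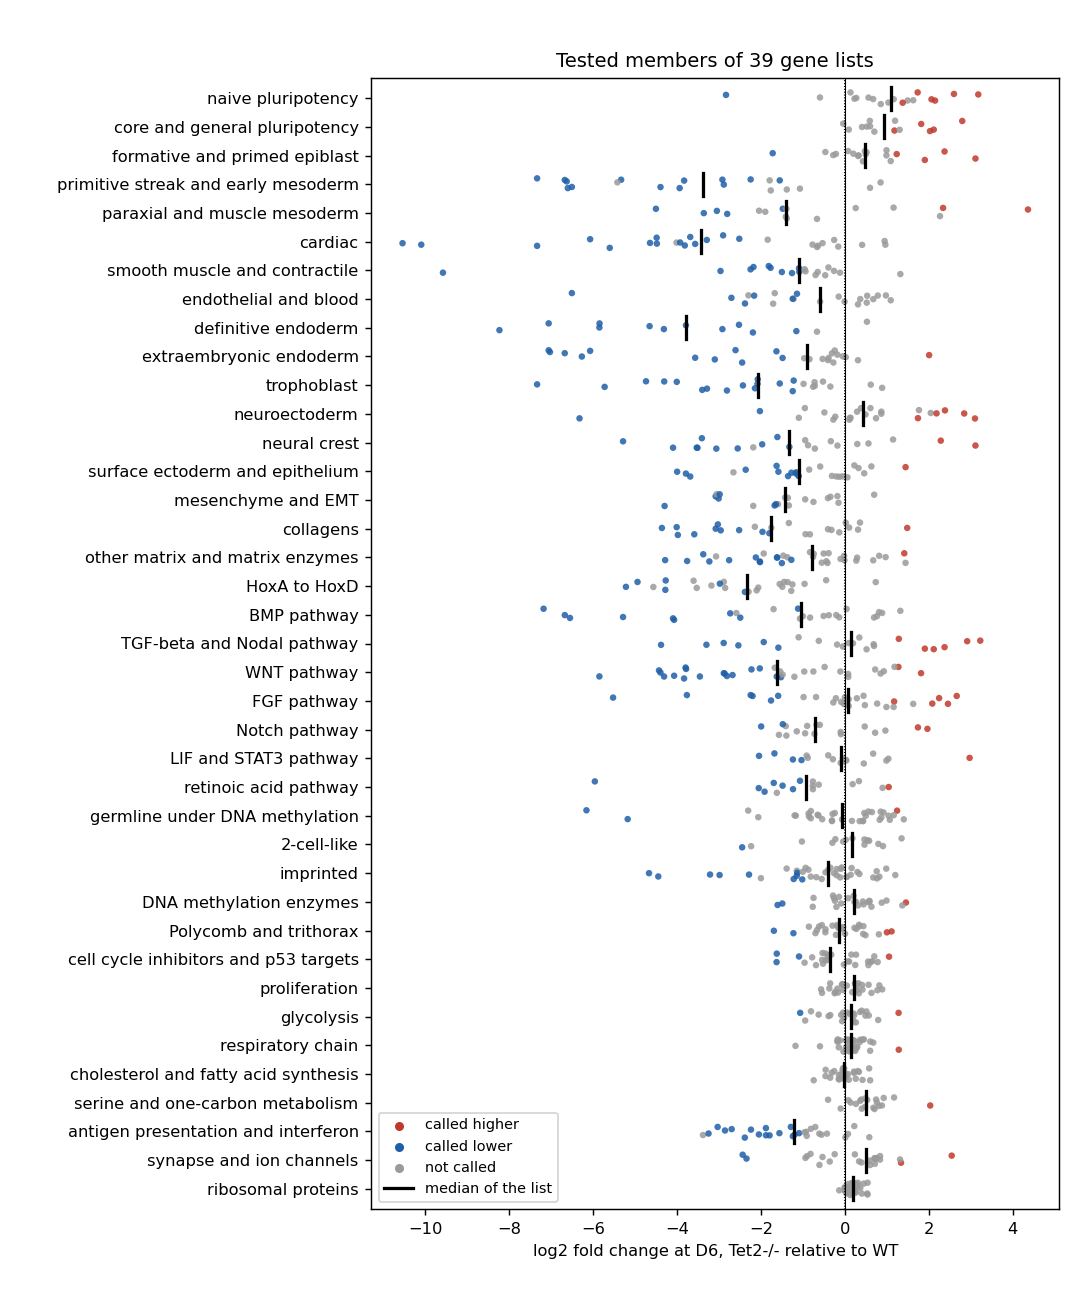
Log2 fold change at D6 (Tet2-/- relative to WT) of each tested member of 39 gene lists, with the list median as a black bar and the median of all genes as a dotted line. Medians lie near or below -2 for streak mesoderm, cardiac, definitive endoderm, trophoblast and Hox genes and above 0.9 for naive and core pluripotency, while the ribosomal, proliferation, glycolysis, respiratory chain and lipid synthesis lists lie between -0.03 and 0.21 and serine and one-carbon metabolism lies at 0.51.

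The naive pluripotency list held 18 genes, all tested, and 6 were called higher and 1 lower (median 1.10; 13 and 0, 4 and 1, then 2 and 0 without each WT clone). Tcl1, an AKT coactivator of naive ESCs, had 12, 4.78 and 5.43 CPM in WT and 63.2 and 71.2 in Tet2-/-. The lower knockout clone was 5.29 times the highest WT clone (log2 fold change 3.18 ± 0.482 SE, adjusted p = 0.00433). Nr0b1 (Dax1), a nuclear receptor that binds Oct4, stood at 19.2, 2.42 and 4.19 CPM in WT, of which replicate 1 was the highest, and at 51 and 53.8 in Tet2-/- (log2 fold change 2.60, adjusted p = 0.0249). Nr5a2, an activator of Pou5f1, reached 100.2 ± 1.69 CPM (SD, n = 2) against 22.5 ± 15.6 (n = 3), log2 fold change 2.15, adjusted p = 0.0151. In the opposite direction, Dppa3 (Stella) had 3.15, 0.914 and 5.43 CPM in WT and 0.394 and 0.513 in Tet2-/- (log2 fold change -2.83, adjusted p = 0.0404), and its adjusted p passed 0.05 when WT replicate 1, WT replicate 3 or either Tet2-/- clone was left out, and with the replicate block (0.0936).

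The core and general list held 14 genes, all tested, and 5 were called higher and 0 lower (median 0.94), and 7 and 0, 4 and 0, then 4 and 0 without each WT clone. Pou5f1 (Oct4), whose locus carries the eGFP, had 287, 221 and 231 CPM in WT and 514 and 604 in Tet2-/-. The groups did not overlap (log2 fold change 1.18 ± 0.274 SE, adjusted p = 0.0128), and at D0 they stood at 810.1, 659 and 805 CPM in WT and 731 and 742 in Tet2-/-, a log2 fold change of -0.04 (adjusted p = 0.841). L1td1, an RNA-binding protein of ESCs, had 235, 180.4 and 146 CPM in WT and 730.4 and 795 in Tet2-/- (log2 fold change 2.03, adjusted p = 0.00793), among the 10 largest rises in CPM of called genes. Dppa2 and Dppa4, partners that keep bivalent promoters open, had log2 fold changes of 2.80 and 1.82 (adjusted p = 0.00977 and 0.0128). Nanog did not separate the groups. It had 512, 220.3 and 303 CPM in WT and 422 and 411 in Tet2-/-, so that WT replicate 1 lay above both knockout clones (log2 fold change 0.27, adjusted p = 0.501). Sox2, Esrrb and Zfp42 were higher in Tet2-/- than in any WT clone but missed the threshold, with adjusted p-values of 0.0548, 0.0567 and 0.0865. Without WT replicate 1 these genes were called higher (adjusted p = 0.00453, 0.00421 and 0.0265), and Nanog had a log2 fold change of 0.67 (adjusted p = 0.0398), under the 2-fold limit. For Sox2 the levels were 413, 142 and 146 CPM in WT and 551 and 604 in Tet2-/-, with WT replicate 1 again nearest to the knockout. Sall4 stood at 325, 440.3 and 361 CPM in WT and 363 and 367 in Tet2-/- (adjusted p = 0.834).

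In the formative and primed epiblast list (19 genes, all tested) the counts were 4 higher and 1 lower (median 0.48; 6 and 1, 1 and 1, then 3 and 1 without each WT clone). Foxd3, a repressor needed in epiblast and later in neural crest, rose from 10.2, 4.46 and 3.49 CPM in the WT clones to 47.3 and 57.7 in Tet2-/-, the lower knockout clone 4.62 times the highest WT clone (adjusted p = 0.0169). Pou3f1 (Oct6), a factor of the post-implantation epiblast, had 79.8, 62.6 and 58 CPM in WT and 154 and 160.1 in Tet2-/- (log2 fold change 1.23, adjusted p = 0.0316). Fgf5 stood at 145, 216 and 101 CPM in WT and 142 and 123 in Tet2-/-, and Otx2 at 428, 199 and 129 CPM in WT and 198 and 167 in Tet2-/-. Both overlapped between groups (adjusted p = 0.735 and 0.459). At D0 Fgf5 had 0.0765, 0.156 and 0.205 CPM in WT and 0.0401 and 0.0544 in Tet2-/-, so this marker of exit from the naive state was induced in every clone, and both D6 knockout values lay within the WT range.

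**Figure D3:**
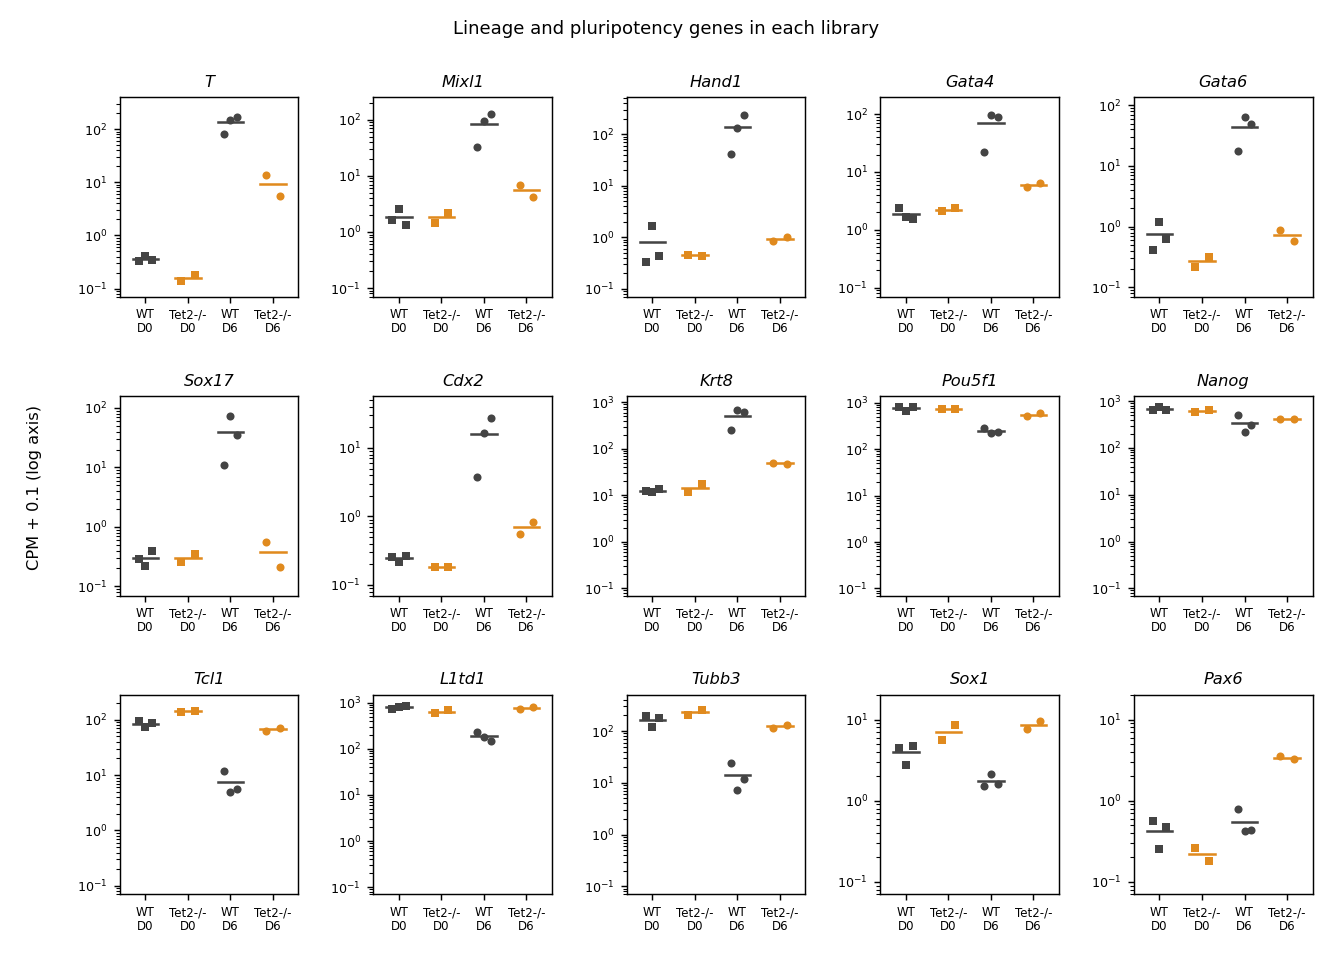
CPM (plus 0.1, log axis) of pluripotency and lineage genes in each library at D0 (squares) and D6 (circles), grey for WT and orange for Tet2-/-, with horizontal lines at group means. T, Mixl1, Hand1, Gata6, Sox17 and Cdx2 rose in the WT clones between the days, with WT replicate 1 lowest at D6, and lie lower in both Tet2-/- clones; L1td1 is near its D0 level in Tet2-/- at D6, while Tcl1 and Tubb3 lie below their D0 level in both groups and further below it in WT.

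The primitive streak and early mesoderm list held 20 genes, all tested, and 13 were called lower and 0 higher (median -3.37), and 14 and 0, 12 and 0, then 11 and 0 without each WT clone. T (Brachyury), the T-box factor of the streak, had 82.8, 147 and 173 CPM in WT and 13.4 and 5.42 in Tet2-/-. The lowest WT clone, replicate 1, was 6.2 times the higher knockout clone (log2 fold change -3.83 ± 0.667 SE, adjusted p = 0.00556). At D0 its mean was 0.263 CPM in WT and 0.0609 in Tet2-/-, so some induction had occurred in the knockout. Hand1, a basic helix-loop-helix factor of lateral and extraembryonic mesoderm, stood at 41, 132 and 232 CPM in WT and at 0.757 and 0.915 in Tet2-/- (log2 fold change -7.33 ± 1.27 SE, adjusted p = 0.00556). WT replicate 1 was the lowest WT clone and still 44.8 times the higher knockout clone. Mesp1, which starts cardiac mesoderm, had 9.65, 26.5 and 36.7 CPM in WT and 0.364 and 0.110 in Tet2-/- (log2 fold change -6.60, adjusted p = 0.0111). The receptor genes Pdgfra and Kdr (VEGFR2), which mark paraxial and lateral mesoderm, were lower too. Pdgfra had 22.9, 86.2 and 78 CPM in WT and 0.818 and 0.366 in Tet2-/- (log2 fold change -6.68, adjusted p = 0.00613). Kdr had 21.8, 86.7 and 125 CPM in WT and 0.697 and 1.03 in Tet2-/- (log2 fold change -6.51, adjusted p = 0.00898). Eomes, a T-box factor of the early streak chosen after its values were seen, had 104, 279 and 245 CPM in WT and 84.1 and 58.4 in Tet2-/- (log2 fold change -1.55, adjusted p = 0.0255).

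In the cardiac list (29 genes, of which 26 were tested) 15 genes were called lower and 0 higher (median -3.43; 16 and 0, 14 and 0, then 14 and 0 without each WT clone). Hand2, a heart field factor, had 1.52, 7.8 and 10.7 CPM in WT and no count in either Tet2-/- clone. Against the floor of 3 counts per library it was at least 66.4-fold lower (adjusted p = 0.0101). Kcnj5, a potassium channel of atrial muscle, was likewise without a count in Tet2-/- and had 1.95, 7.63 and 5.17 CPM in WT, at least 49-fold more (adjusted p = 0.0101). Tnnt2, cardiac troponin T, was chosen after its values were seen. It had 0.389, 0.914 and 1.21 CPM in WT and 0.0303 and 0.0366 in Tet2-/- (log2 fold change -4.49, adjusted p = 0.0136). Both Tet2-/- values lie below the floor of 3 counts (0.0909 and 0.110 CPM), so the size of this fold is uncertain. The smooth muscle list (20 genes, of which 19 were tested) had 10 called lower and 0 higher (median -1.09; 10 and 1, 6 and 0, then 8 and 0 without each WT clone), with Acta2 at 38.1, 58.7 and 54.1 CPM in WT and 10.2 and 12 in Tet2-/- (log2 fold change -2.18, adjusted p = 0.0255). Myh9, the nonmuscle myosin heavy chain, was among the 10 largest losses of CPM in called genes (1333 ± 213, SD, n = 3, in WT and 624 ± 28.9, n = 2, in Tet2-/-, adjusted p = 0.00410). In the endothelial and blood list (27 genes, of which 21 were tested), 6 were lower and 0 higher (median -0.59). Without each WT clone these counts were 8 and 2, 4 and 0, then 4 and 0, and the medians -0.89, -0.73 and -0.18. Runx1, the blood stem cell factor, had 2.61, 8.23 and 7.61 CPM in WT and 1.21 and 1.13 in Tet2-/- (log2 fold change -2.38, adjusted p = 0.00854). The paraxial list (23 genes, of which 16 were tested) was split, with 2 higher and 5 lower (median -1.40; 3 and 5, 2 and 3, then 2 and 3 without each WT clone). The higher genes were Tcf15, which also marks primed ESCs, and Msc. Tcf15 had 17.7, 4.89 and 8.25 CPM in WT and 46.5 and 58 in Tet2-/-, and Msc (musculin), the gene with the largest rise among those reaching 5 CPM, 1.17, 0.376 and 0.537 CPM in WT and 10.9 and 18.3 in Tet2-/- (log2 fold changes 2.34 and 4.36, adjusted p = 0.0105 and 0.00656).

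The definitive endoderm list (13 genes, all tested) had 11 genes called lower and 0 higher (median -3.79, or -3.78 with the gene at 0 set to its bound), and 11 and 0, 8 and 0, then 11 and 0 without each WT clone. Sox17, which specifies endoderm, stood at 11.1, 73.1 and 35.5 CPM in WT and 0.454 and 0.110 in Tet2-/-. The lowest WT clone was 24.3 times the higher knockout clone (log2 fold change -7.06 ± 1.22 SE, adjusted p = 0.00556). Cer1, a secreted Nodal, BMP and WNT antagonist of anterior endoderm, had 22.4, 71 and 27.9 CPM in WT and 1.06 and 0.293 in Tet2-/- (log2 fold change -5.85, adjusted p = 0.00551). Foxa2, the pioneer factor of endoderm and axial mesoderm, was less far apart, with 9.77, 42.7 and 16.1 CPM in WT and 4.82 and 3.08 in Tet2-/- (log2 fold change -2.52, adjusted p = 0.0244), and is named after its values were seen. In the extraembryonic endoderm list (30 genes, of which 24 were tested), 11 were lower and 1 higher (median -0.91; 12 and 1, 10 and 0, then 10 and 0 without each WT clone). Gata6, which directs primitive endoderm, had 17.6, 63.2 and 49.4 CPM in WT and 0.788 and 0.476 in Tet2-/- (log2 fold change -6.07 ± 0.925 SE, adjusted p = 0.00434). The knockout level was within the range of D0 WT clones (0.306, 1.1 and 0.533 CPM). Gata4, chosen after its values were seen, was still at 5.45 and 6.26 CPM in Tet2-/-, against 21.9, 98 and 88.5 in WT (log2 fold change -3.57, adjusted p = 0.0105). Afp and Ttr, products of mature visceral endoderm, did not pass the filter.

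Among trophoblast genes (27 genes, of which 23 were tested) 15 were called lower and 0 higher (median -2.08, or -1.55 with bounds; 13 and 0, 11 and 0, then 11 and 0 without each WT clone). Cdx2, a trophectoderm factor that posterior mesoderm also expresses, had 3.62, 16.3 and 27.4 CPM in WT and 0.454 and 0.732 in Tet2-/-. WT replicate 1 was well below the other WT clones but did not overlap with the knockout (log2 fold change -4.74 ± 1.19 SE, adjusted p = 0.0167). Several other members of this list, such as Hand1, Eomes and Krt8, are shared with mesoderm or epithelium, and Tpbpa of the placenta was at 0 in all libraries. The simple-epithelium keratins Krt8 and Krt18 were among the 10 largest losses of CPM in called genes. Krt8 had 255, 685 and 604 CPM in WT and 50.4 and 47.1 in Tet2-/- (log2 fold change -3.40, adjusted p = 0.00414), and Krt18 behaved alike (log2 fold change -3.29, adjusted p = 0.00410). Surface ectoderm and epithelium (26 genes, of which 25 were tested) had 11 lower and 1 higher (median -1.10; 11 and 1, 7 and 0, then 9 and 0 without each WT clone). Dsp, the desmosomal plaque protein, had 204, 543 and 396 CPM in WT and 73 and 75 in Tet2-/- (log2 fold change -2.36, adjusted p = 0.00415). Cdh3 (P-cadherin) was the only member of the list called higher, at 123 and 152 CPM against 68, 41.3 and 42.3 (log2 fold change 1.45, adjusted p = 0.0175), while Cdh1 (E-cadherin) stood at 731, 764 and 587 in WT and 731 and 715 in Tet2-/- (adjusted p = 0.847).

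Among the lists of differentiated lineages, neuroectoderm alone had more genes higher than lower. It held 29 genes, of which 24 were tested, and 5 were called higher and 2 lower (median 0.44; 5 and 2, 4 and 0, then 4 and 0 without each WT clone). Sox1, an early neural plate factor, had 1.4, 2.04 and 1.51 CPM in WT and 7.66 and 9.52 in Tet2-/-. The WT clones lay together and both knockout clones above them (log2 fold change 2.39 ± 0.626 SE, adjusted p = 0.0195). Pax6 had 0.701, 0.323 and 0.335 CPM in WT and 3.42 and 3.18 in Tet2-/- (log2 fold change 2.84 ± 0.647 SE, adjusted p = 0.0120), and at D0 it was at 0.459, 0.156 and 0.369 CPM in WT and 0.160 and 0.0816 in Tet2-/-, so this level was reached during the 6 days. The neuronal tubulin Tubb3 and the RNA-binding protein Elavl3 were higher. Tubb3 had 24.3, 7.31 and 11.5 CPM in WT and 114 and 133 in Tet2-/-, the lower knockout clone 4.72 times the highest WT clone (adjusted p = 0.00716). Elavl3 had 5.14, 1.34 and 1.84 CPM in WT and 12.2 and 13.2 in Tet2-/- (log2 fold change 2.18, adjusted p = 0.00988). Tubb3 differed from Pax6 in that WT ESCs already had 199, 118 and 178 CPM at D0, so that its D6 difference came with a fall in WT. Tubb3 and Sox1 lie on chromosome 8, whose median was higher in both Tet2-/- clones at both days, and the part of this was not tested. Nes (nestin) did not separate the groups (76.3, 116 and 122 CPM in WT and 79.5 and 69.7 in Tet2-/-, adjusted p = 0.151). The summed neuroectoderm markers (Sox1, Pax6 and Nes) did not either, but Nes made up most of the sum in every library. Neural crest genes (24 genes, of which 21 were tested) had 10 called lower and 2 higher (median -1.32; 11 and 2, 9 and 1, then 7 and 1 without each WT clone). Msx1 and Msx2, homeobox targets of BMP, were lower. Msx1 had 18.1, 84.9 and 102 CPM in WT and 4.21 and 3.77 in Tet2-/- (log2 fold change -4.10, adjusted p = 0.0104), and Msx2 had 23.4, 64.1 and 95.9 CPM in WT and 1.48 and 1.65 in Tet2-/- (log2 fold change -5.29, adjusted p = 0.00589). Ngfr, the p75 neurotrophin receptor, went the other way (3.23, 2.9 and 5.17 CPM in WT, 15.5 and 21.5 in Tet2-/-, adjusted p = 0.00640).

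Signalling genes were counted by pathway, ligands before receptors and targets. For BMP (24 genes, all tested), 9 were lower and 0 higher (median -1.04; 11 and 2, 8 and 0, then 8 and 0 without each WT clone). The ligand Bmp2 had 12.3, 52.5 and 58.8 CPM in WT and 0.364 and 0.183 in Tet2-/- (log2 fold change -7.18 ± 1.47 SE, adjusted p = 0.00854). Bmp5 was also lower in both knockout clones, with 3.74, 21.9 and 16.3 CPM in WT and 0.151 and 0.110 in Tet2-/- (log2 fold change -6.67, adjusted p = 0.0125), whereas Id1, a direct BMP target, stood at 47.4, 89 and 108 in WT and 71.3 and 96.3 in Tet2-/- (adjusted p = 0.925). In the WNT list (34 genes, of which 33 were tested) 17 were lower and 2 higher (median -1.62; 19 and 3, 14 and 1, then 11 and 1 without each WT clone). The ligand Wnt3, which patterns the streak, had 49.7, 82.5 and 125 CPM in WT and 13.6 and 9.59 in Tet2-/- (log2 fold change -2.89, adjusted p = 0.00689), and the feedback target Axin2 42.8, 56.5 and 85.8 CPM in WT and 22.6 and 17.4 in Tet2-/- (log2 fold change -1.62, adjusted p = 0.0130), both chosen after their values were seen. The secreted inhibitor Sfrp1 was the opposite, at 224 and 261 CPM in Tet2-/- and 56.8, 97.2 and 53.1 in WT (log2 fold change 1.82, adjusted p = 0.00410). Dkk1, another inhibitor and itself a WNT target, fell with the ligands (6.77, 37.8 and 35.3 CPM in WT, 0.636 and 0.256 in Tet2-/-, adjusted p = 0.00614).

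The TGF-beta and Nodal list (22 genes, all tested) was split into 6 higher and 6 lower (median 0.14; 6 and 6, 4 and 6, then 4 and 6 without each WT clone). The members that rose included the Nodal feedback inhibitors Lefty1 and Lefty2 and the Nodal-related ligand Gdf3. Lefty2 had 98.8, 94 and 69.3 CPM in WT and 402 and 504 in Tet2-/-, the lower knockout clone 4.07 times the highest WT clone (log2 fold change 2.38 ± 0.336 SE, adjusted p = 0.00410). Lefty1 stood at 43.9, 32 and 19.2 CPM in WT and 102 and 135 in Tet2-/- (log2 fold change 1.91, adjusted p = 0.0257), and Nodal itself at 56.9, 89.2 and 87 CPM in WT and 105 and 117 in Tet2-/- (adjusted p = 0.0974). Inhbb, the activin B subunit, had 5.97 and 8.31 CPM in Tet2-/- against 1.21, 0.753 and 0.335 in WT (log2 fold change 3.23, adjusted p = 0.00414). It was at 134, 193 and 162 CPM in WT at D0, and both groups were far below this level at D6. The TGF-beta ligands Tgfb1 and Tgfb2 were lower. Tgfb1 had 20.4, 63.9 and 73.9 CPM in WT and 7.06 and 7.18 in Tet2-/- (log2 fold change -2.89, adjusted p = 0.0129), and Tgfb2 had 27.7, 79.4 and 97.9 CPM in WT and 7.03 and 6.85 in Tet2-/- (log2 fold change -3.30, adjusted p = 0.0130). FGF genes (30 genes, of which 28 were tested) were also split, with 5 higher and 6 lower (median 0.07; 6 and 6, 4 and 5, then 4 and 5 without each WT clone). The feedback inhibitor Spry4 had 25.4, 30.6 and 22.9 CPM in WT and 162 and 171 in Tet2-/- (log2 fold change 2.66, adjusted p = 0.00533), and the ligand Fgf15 15.1, 13.4 and 10.1 CPM in WT and 60.6 and 61.3 in Tet2-/- (log2 fold change 2.25, adjusted p = 0.0187). The mesodermal ligand Fgf10 went from 17.9, 84.8 and 76.6 CPM to 1.88 and 0.659 (log2 fold change -5.52 ± 1.12 SE, adjusted p = 0.00844).

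The LIF and STAT3 list held 17 genes, all tested, and 1 was higher and 4 lower (median -0.10; 4 and 6, 2 and 3, then 1 and 3 without each WT clone). Socs3, the feedback inhibitor that STAT3 induces, had a log2 fold change of -2.05 (18.3, 33.5 and 32.9 CPM in WT, 6.91 and 6.77 in Tet2-/-, adjusted p = 0.00549), and both groups were far below their D0 levels of 176, 191 and 177 CPM in WT and 180.0 and 157 in Tet2-/-. Gbx2, a STAT3 target of naive ESCs, was higher (0.895, 2.15 and 2.85 CPM in WT and 14.7 and 16.3 in Tet2-/-, log2 fold change 2.97, adjusted p = 0.00414). In the retinoic acid list (18 genes, of which 16 were tested), 1 was higher and 7 lower (median -0.92; 1 and 7, 1 and 5, then 1 and 3 without each WT clone). Cyp26a1, which degrades retinoic acid and is expressed in the streak, had 24.5, 132 and 76.4 CPM in WT and 1.94 and 0.476 in Tet2-/- (log2 fold change -5.96, adjusted p = 0.00556). The Notch list (20 genes, of which 18 were tested) had 2 higher and 2 lower (median -0.70; 1 and 5, 1 and 0, then 3 and 0 without each WT clone). Hedgehog genes, a list written after the values were seen, gave 4 higher and 3 lower of 14 tested (3 and 5, 4 and 2, then 2 and 2 without each WT clone). The ones called higher with all libraries included the response genes Gli1, Ptch1 and Hhip. Gli1 had 3.78, 4.95 and 5.27 CPM in WT and 27.5 and 38.4 in Tet2-/-, the lower knockout clone 5.22 times the highest WT clone (log2 fold change 2.82 ± 0.551 SE, adjusted p = 0.00739). The ligand gene Shh was without a count in Tet2-/- and at 0.584, 2.74 and 0.805 CPM in WT, at least 13.7-fold more than the floor of 3 counts per library, and the coreceptors Boc and Cdon were called lower. Gli1 already differed at D0 (37.1, 16.9 and 35 CPM in WT and 56.4 and 63.9 in Tet2-/-, log2 fold change 1.02, adjusted p = 0.0271).

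The list of mesenchyme and epithelial-mesenchymal transition (19 genes, all tested) had 6 lower and 0 higher (median -1.43; 8 and 0, 6 and 0, then 5 and 0 without each WT clone). Snai1, the repressor that starts this transition in the streak, had 11.5, 34.4 and 42.2 CPM in WT and 3.67 and 3.62 in Tet2-/- (log2 fold change -3.01, adjusted p = 0.0199). Collagen genes (24 genes, of which 23 were tested) had 10 lower and 1 higher (median -1.75; 10 and 0 each time without each WT clone). Col1a1, the main fibrillar collagen chain, had 57.2, 126 and 274 CPM in WT, highest in replicate 3 and lowest in replicate 1, and 8.06 and 6.77 in Tet2-/- (log2 fold change -4.36 ± 0.682 SE, adjusted p = 0.00444). Other matrix genes and their enzymes (36 genes, of which 34 were tested) had 12 lower and 1 higher (median -0.79; 14 and 3, 7 and 1, then 7 and 1 without each WT clone). Vcan (versican), a matrix proteoglycan, was the only member called higher, with 34.1, 66.6 and 48.3 CPM in WT and 139.8 and 125 in Tet2-/- (log2 fold change 1.42, adjusted p = 0.0103). Among guidance molecules, a list written after the values were seen, 9 of 26 tested semaphorins, plexins and neuropilins were lower and 2 higher (12 and 3, 8 and 2, then 8 and 2 without each WT clone). Nrp1, a coreceptor of semaphorins and VEGF, had 11.9, 89.4 and 81.4 CPM in WT and 0.576 and 0.439 in Tet2-/- (log2 fold change -6.88 ± 1.38 SE, adjusted p = 0.00789). Of 39 Hox genes 24 passed the filter, and 6 were called lower and 0 higher (median -2.34; 9 and 0, 4 and 0, then 2 and 0 without each WT clone). All were low in WT, as in Hoxd9, with 0.545, 1.83 and 3.69 CPM in WT and 0.0303 and 0.183 in Tet2-/- (log2 fold change -4.27, adjusted p = 0.0401).

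Imprinted genes, of which only the copy from 1 parent is expressed, were also counted (41 genes, of which 39 were tested). Called lower were 9 and higher 0 (median -0.40; 11 and 0, 8 and 1, then 6 and 0 without each WT clone). Igf2, the growth factor expressed from the paternal copy, had 265, 828 and 688 CPM in WT and 21.6 and 25.1 in Tet2-/-. The lowest WT clone was 10.5 times the higher knockout clone (log2 fold change -4.67 ± 0.719 SE, adjusted p = 0.00434). H19, the maternal noncoding RNA of the same domain, fell with it (53.8, 61 and 142 CPM in WT, 8.79 and 9.66 in Tet2-/-, log2 fold change -3.21, adjusted p = 0.00651). Peg3 and its neighbours Zim1 and Usp29 were lower too. Peg3, a zinc finger factor, stood at 387, 969 and 878 CPM in WT and 105 and 82.7 in Tet2-/- (log2 fold change -2.99, adjusted p = 0.00534), and Zim1 at 4.63, 16.1 and 12.8 CPM in WT and 0.636 and 0.366 in Tet2-/- (log2 fold change -4.45, adjusted p = 0.00474). At D0, Igf2 was at 3.33, 5.28 and 3.24 CPM in WT and 2.89 and 3.02 in Tet2-/-, and Peg3 at 21.5, 12.5 and 18.4 CPM in WT and 27.3 and 24 in Tet2-/-, so the difference accompanied a rise in WT. Meg3 of the Dlk1 domain was not called, with 37.3, 67.8 and 53.8 CPM in WT and 47 and 45.4 in Tet2-/- (adjusted p = 0.571). The IGF axis, a list written after the values were seen that counts Igf2 again, gave 6 lower and 0 higher of 16 tested (7 and 1, 5 and 0, then 3 and 0 without each WT clone). Igfbp3, which binds IGFs outside the cell, had 538, 798 and 854 CPM in WT and 119 and 63.8 in Tet2-/- (log2 fold change -2.99, adjusted p = 0.00515).

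The antigen presentation and interferon list held 29 genes, of which 28 were tested, and 15 were called lower and 0 higher (median -1.22; 16 and 0, 11 and 0, then 11 and 0 without each WT clone). WT replicate 1 was the lowest WT clone for 11 of the 15 genes called lower, and Tet2-/- replicate 2 lay below replicate 1 for 13. Tap1, the peptide transporter for MHC class I, had 35.8, 40.6 and 45 CPM in WT and 10.3 and 9.23 in Tet2-/- (log2 fold change -2.05 ± 0.295 SE, adjusted p = 0.00414). Psmb8, an immunoproteasome subunit, had 43.7, 43.2 and 62.6 CPM in WT and 12.7 and 6.3 in Tet2-/- (log2 fold change -2.38, adjusted p = 0.0101), and B2m, the light chain of MHC class I, 57.7, 81.4 and 68 CPM in WT and 31.6 and 24.9 in Tet2-/- (log2 fold change -1.29, adjusted p = 0.0120); these 3 were chosen after their values were seen. Isg15, a ubiquitin-like protein, stood at 4.75, 11.3 and 7.98 CPM in WT and 1.7 and 0.732 in Tet2-/- (log2 fold change -2.70, adjusted p = 0.0200), and Ifit1, which binds foreign RNA, at 2.22, 5.54 and 3.45 CPM in WT and 0.606 and 0.146 in Tet2-/- (log2 fold change -3.25, adjusted p = 0.0113). Stat2, a regulator of these genes, passed the p-value but not the 2-fold limit (log2 fold change -0.93, adjusted p = 0.0315). A list of interferon-inducible GTPases, written after the values were seen, had 10 lower and 0 higher of 14 tested (11 and 0, 5 and 0, then 5 and 0 without each WT clone). Gbp2, a guanylate-binding protein, had 175, 279.9 and 269 CPM in WT and 60.8 and 31.1 in Tet2-/- (log2 fold change -2.39, adjusted p = 0.0117). Igtp (Irgm3) had 30.0, 31.4 and 34.6 CPM in WT and 9.39 and 4.72 in Tet2-/- (log2 fold change -2.18, adjusted p = 0.0234). At D0 Gbp2 had 0.0765, 0.0391 and 0.246 CPM in WT and 0.0401 and 0 in Tet2-/-, while Igtp stood at 1.57, 2.78 and 2.62 CPM in WT and 0.561 and 0.626 in Tet2-/- (log2 fold change -1.95, adjusted p = 0.0121). MHC genes, Gbp genes and Irgm genes form families of similar sequence, so reads can be split between members, and values of single members are uncertain.

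The promoters of these genes were searched on both strands for GAAA, any 2 bases and GAAA again (a promoter counted once however many matches it held), the core of the element bound by interferon-activated factors. RefSeq promoters (GRCm38.p6, 250 bases before to 50 after the start) were matched for 12 of the 15 genes called lower in the list, and 8 held the motif (66.7%). Among list members not called, 3 of 12 held it. All 7 matched promoters of the GTPases called lower held it, and so did 2 of 2 of those not called, against 2.78% of the 11394 promoters of all tested genes and 4.96% of the 1049 of genes called lower. A match is not a binding site, and the motif was chosen after the values were seen. The promoters of Isg15, Ifit1 and Igtp are shown because they carry the motif, in capitals, at different places on either strand.
Isg15, chr4:156200769-156201068, minus strand: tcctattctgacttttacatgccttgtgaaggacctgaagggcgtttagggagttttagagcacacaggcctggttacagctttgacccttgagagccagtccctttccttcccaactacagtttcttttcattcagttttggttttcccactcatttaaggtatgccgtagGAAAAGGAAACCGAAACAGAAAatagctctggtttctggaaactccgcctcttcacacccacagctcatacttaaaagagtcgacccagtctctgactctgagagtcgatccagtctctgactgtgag
Ifit1, chr19:34640639-34640938, plus strand: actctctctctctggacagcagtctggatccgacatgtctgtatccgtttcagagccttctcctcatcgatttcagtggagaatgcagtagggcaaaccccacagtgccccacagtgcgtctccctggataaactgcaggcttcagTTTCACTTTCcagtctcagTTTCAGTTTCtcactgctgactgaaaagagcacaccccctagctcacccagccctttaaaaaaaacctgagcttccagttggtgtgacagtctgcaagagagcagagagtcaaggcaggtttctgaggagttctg
Igtp, chr11:58199306-58199605, plus strand: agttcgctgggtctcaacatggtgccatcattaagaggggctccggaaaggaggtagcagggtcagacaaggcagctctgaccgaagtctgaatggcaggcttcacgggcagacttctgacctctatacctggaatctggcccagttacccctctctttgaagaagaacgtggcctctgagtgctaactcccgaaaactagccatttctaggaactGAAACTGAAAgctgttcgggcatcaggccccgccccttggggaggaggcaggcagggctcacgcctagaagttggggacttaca
In Isg15 the matches overlap into 1 run of capitals that starts 78 bases before the gene's start, Ifit1 holds 2 separate matches that start 104 and 85 bases before it, read from the other strand, and Igtp holds 1 at 34 bases before it.

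**Figure D4:**
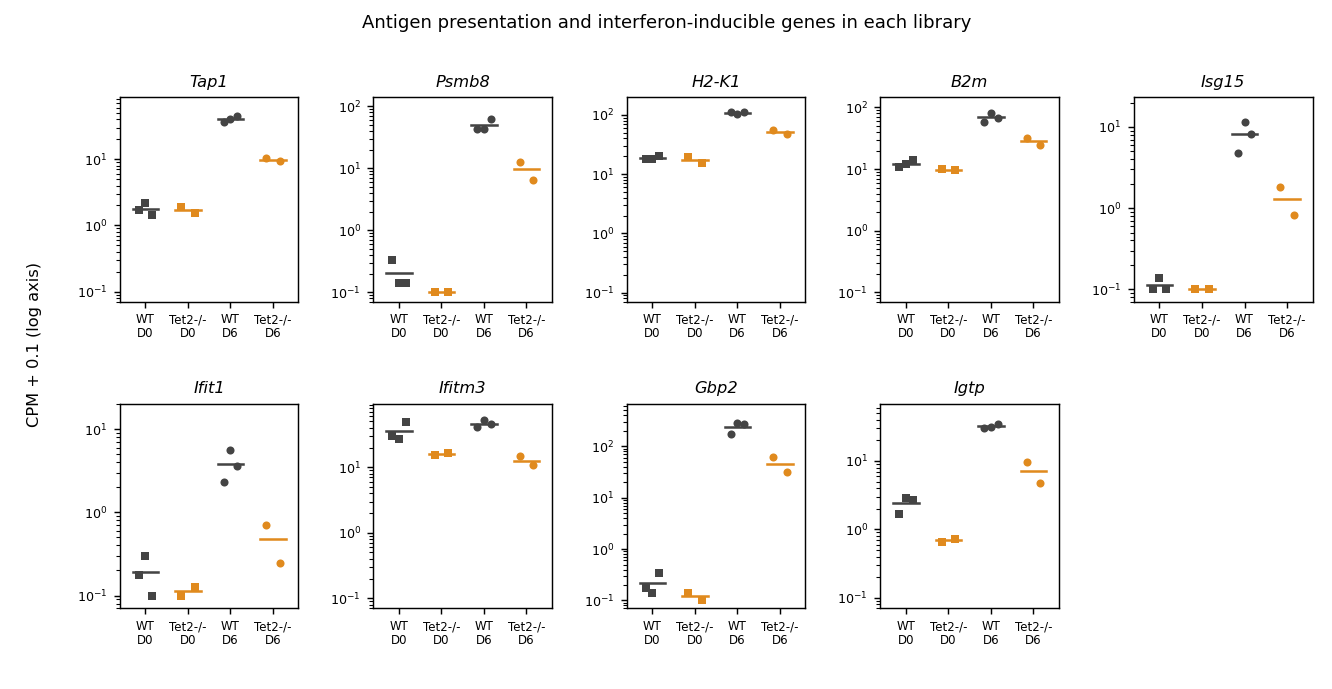
CPM (plus 0.1, log axis) of antigen presentation and interferon-inducible genes in each library at D0 (squares) and D6 (circles), grey for WT and orange for Tet2-/-, with horizontal lines at group means. At D6 both Tet2-/- libraries lie below all WT libraries for each gene shown.

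The list of DNA methylation writers, erasers and partners held 26 genes, of which 25 were tested, and 1 was higher and 2 lower (median 0.23; 2 and 2, 0 and 1, then 1 and 1 without each WT clone). Dnmt3l, the cofactor of de novo methylation in ESCs, had 67.6, 49.5 and 61.1 CPM in WT and 142 and 184 in Tet2-/- (log2 fold change 1.45, adjusted p = 0.0296). Dnmt3a passed the p-value but not the 2-fold limit, at 192, 161 and 180.3 CPM in WT and 339.7 and 368 in Tet2-/- (log2 fold change 0.99, adjusted p = 0.00264). Gadd45b, a stress gene also linked to demethylation, was lower (41.1, 63.9 and 50.5 CPM in WT, 17.6 and 19.3 in Tet2-/-, log2 fold change -1.49, adjusted p = 0.00591). Germline genes that promoter methylation silences (40 genes, of which 35 were tested) had 1 higher and 2 lower (median -0.07). Without each WT clone the counts were 9 and 2, 0 and 4, then 0 and 1, and the medians 0.59, -0.26 and 0.16. Both the count and the sign of the median thus depend on which WT clones are used. At D0 the same list had 11 genes lower and 0 higher in Tet2-/-. Xlr3a, of an X-linked multigene family, was among the lower genes (5.92, 1.51 and 7.41 CPM in WT and 0.121 and 0 in Tet2-/- at D6). Ddx4 (Vasa), the germ cell helicase, was the member called higher (22.9, 15.4 and 13.9 CPM in WT and 39.8 and 42.6 in Tet2-/-, log2 fold change 1.24, adjusted p = 0.0221). The list of 2-cell-like genes (21 genes, of which 15 were tested) had 1 lower and 0 higher (median 0.18). Without each WT clone these counts were 1 and 0, 0 and 0, then 0 and 0. Only 3 of its genes passed the filter with the Tet2-/- and WT libraries alone, so its median says little about these libraries. At D0 this list had 7 genes lower and 0 higher in Tet2-/-. The list of Polycomb and trithorax subunits (28 genes, of which 27 were tested) had 2 lower and 2 higher (median -0.15). Without each WT clone these were 2 and 3, 0 and 1, then 0 and 1.

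Housekeeping and growth lists were counted as well. The 28 tested proliferation genes, the 27 of cholesterol and fatty acid synthesis and the 45 of cytoplasmic ribosomal proteins had 0 calls (edgeR and DESeq2, and 0 genes at an unadjusted p under 0.05 with over 2-fold), with medians of 0.21, -0.03 and 0.19. Mki67, the proliferation antigen, had 413, 466 and 435 CPM in WT and 437 and 408 in Tet2-/- (adjusted p = 0.729). Ribosomal genes lay above WT for 43 of 45, each by less than 2-fold, and many have pseudogene copies. Cell cycle inhibitors and p53 targets had 1 higher and 3 lower of 28 tested (1 and 3, 0 and 2, then 1 and 2 without each WT clone). Glycolysis had 1 and 1 of 24 (2 and 1, 1 and 0, then 1 and 1 without each WT clone), and the respiratory chain 1 and 0 of 38 (2 and 0, 0 and 0, then 0 and 0 without each WT clone). Serine and one-carbon genes had 1 higher of 20 (median 0.51; 4, 1, then 1 without each WT clone), and synapse and ion channel genes 2 higher and 2 lower of 24 (3 and 2, 2 and 1, then 2 and 1 without each WT clone). Pdk1, which holds back pyruvate oxidation, was among the called genes that gained the most CPM (367, 223 and 203 in WT, 641 and 641 in Tet2-/-, log2 fold change 1.28, adjusted p = 0.00980). Of 5 arrestin-like genes, a list written after the values were seen, Txnip, an inhibitor of glucose uptake, and Arrdc4 were called lower, and Arrdc1, Arrdc2 and Arrdc3 were not called (median -0.55; 2 each time without each WT clone). Txnip stood at 443, 310.1 and 432 CPM in WT and 14.6 and 12.6 in Tet2-/-, and the lowest WT clone was 21.3 times the higher knockout clone (log2 fold change -4.86 ± 0.845 SE, adjusted p = 0.00556). Arrdc4 stood at 66.3, 57.3 and 70.5 CPM in WT and 6.45 and 5.45 in Tet2-/- (log2 fold change -3.44 ± 0.512 SE, adjusted p = 0.00426). Both were called lower at D0 already, with Txnip at 135, 123 and 102 CPM in WT and 32.7 and 22.7 in Tet2-/- (log2 fold change -2.12, adjusted p = 0.000787). From D0 to D6 Txnip rose in every WT clone and fell in both knockout clones. Of 4 metallothioneins, which bind zinc and copper, a list written after the values were seen, Mt1, Mt2 and Mt3 were called higher and Mt4 was not (3, 2, then 2 higher without each WT clone). Mt1 had 79.6, 39 and 49.7 CPM in WT and 169 and 176 in Tet2-/- (log2 fold change 1.62, adjusted p = 0.0127). It lies on chromosome 8, whose median was higher in both Tet2-/- clones than in every WT clone at both days. The chromosome of the other members is not given here, and the part of chromosome content was not tested.

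The rule for the largest changes added genes outside these lists. Among genes with at least 5 CPM in the higher group, the 12 largest rises included Enox1, a cell surface oxidase (3.78, 3.12 and 3.39 CPM in WT, 40.5 and 44 in Tet2-/-, log2 fold change 3.62, adjusted p = 0.00556), and Cdh9, a cadherin of neurons (1.17, 0.591 and 1.34 CPM in WT and 9.78 and 9.85 in Tet2-/-, log2 fold change 3.21, adjusted p = 0.00444). Enox1 had 82.4, 87.8 and 105 CPM in WT at D0, so that the knockout retained a part of the ESC level, but Cdh9 was at 1.45, 0.743 and 0.860 CPM and was gained. Bnc2, a zinc finger protein, and Cspg5, a neural proteoglycan, were among them too (log2 fold change 3.42, adjusted p = 0.00566 for Bnc2 and log2 fold change 3.36, adjusted p = 0.00410 for Cspg5). The 12 largest falls included Aplnr, the apelin receptor of early mesoderm (28.7, 85.9 and 81.1 CPM in WT, 0.939 and 0.183 in Tet2-/-, log2 fold change -6.79, adjusted p = 0.0111), Capn6 (15.6, 65.3 and 56.5 CPM in WT and 0.303 and 0.293 in Tet2-/-, log2 fold change -7.24, adjusted p = 0.00625) and Tbx2, a T-box repressor (3.23, 11.1 and 19.4 CPM in WT and 0.121 and 0.0732 in Tet2-/-, log2 fold change -6.76, adjusted p = 0.00700). The 10 largest gains in CPM among called genes, of which L1td1 had the largest, included Dhx9, Ddx21 and Hells, helicases of RNA or chromatin. Dhx9 had 402, 452 and 399 CPM in WT and 932 and 904 in Tet2-/- (log2 fold change 1.14, adjusted p = 0.00474). The 10 largest losses among called genes included Peg10, Igf2, Peg3, Myh9, Igfbp3, Podxl, Krt8, Krt18 and Gnas.

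Called genes were compared with what WT cells did over the 6 days. Of the 1459 genes called lower, 984 had a WT mean at D6 over 2-fold above that at D0 on the log2(CPM + 1) scale and 20 one over 2-fold below. For the 742 called higher the order was reversed, with 26 above and 337 below. For each of these genes the mean D6 level of Tet2-/- was placed between the WT means at D0 and D6. It lay at a median of 27.5% (called lower) and 23.4% (called higher) of the WT move. The start is WT at D0, so this is not how far Tet2-/- cells moved from their own D0 level. Called genes tested at D0 already had a median log2 fold change of -0.29 (called lower) and 0.28 (called higher) there. The genes were chosen by their D6 difference, so these shares describe them and are not a test. At D0 the same contrast called 118 genes higher (0.816% of 14456) and 343 lower (2.37%), or 3.19% in either direction. Of the genes called lower at D6, 115 were called lower at D0 and 6 higher, out of 1095 tested there; of those called higher, 45 were higher and 1 lower out of 716. A test of the difference between days passed for 506 of the former and 345 of the latter in the same direction (edgeR, all 24 libraries), against 5.13% of all genes in the lower and 3.54% in the higher direction (8.68% in either). It shares the D6 libraries with the calls, so nothing is read from the overlap.

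**Figure D5:**
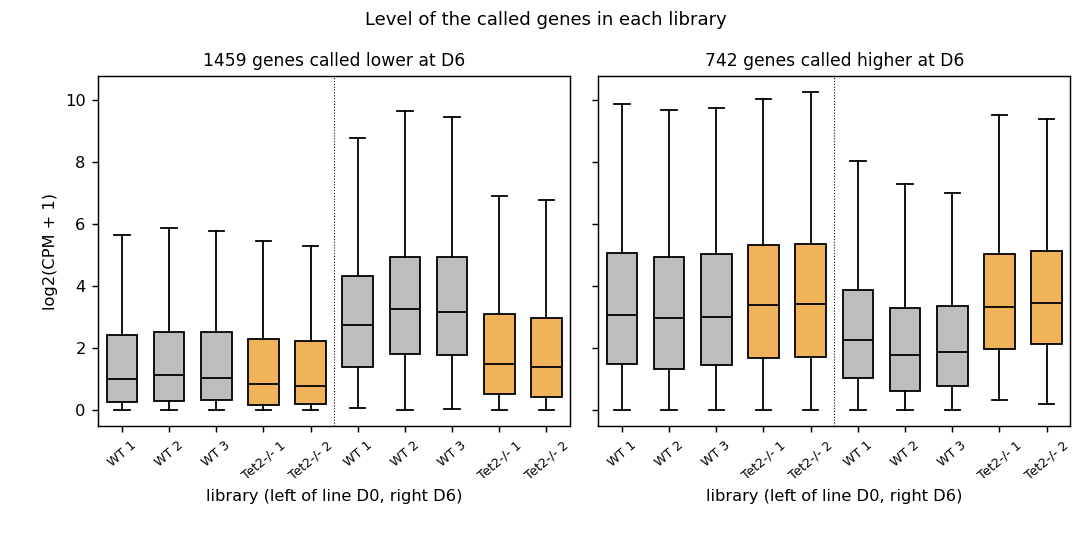
Level, as log2(CPM + 1), of the 1459 genes called lower (left) and the 742 called higher (right) in each library at D0 and D6; boxes span the quartiles with the median as a line, and whiskers reach the last value within 1.5 times the box. The genes were chosen by their D6 difference. Both Tet2-/- libraries at D6 lie closer to the D0 level than the WT libraries, and WT replicate 1 lies between.

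Promoters were also described by their CpG content. RefSeq promoters (GRCm38.p6) were matched for 11394 of 15435 tested genes, and the median number of CpG dinucleotides in their 300 bases was 20. It was 15 for 530 genes called higher and 16 for 1049 called lower. Fewer than 5 CpGs were found in 8.55%, 15.5% and 15.2% of these promoters. This is a description, with no test, and DNA methylation was not analysed here.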

How the data were processed

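RNA-seq counts of 24 clone libraries (12 at D0, 12 at D6) were used. The authors aligned reads with STAR 2.5.1 to mm9 and deposited raw counts per transcript line named by gene symbol; annotation release and strand setting are not given in the sources used here, so overlapping and antisense genes cannot be told apart. The first line of each of 22926 symbols was kept. edgeR 4.0.16 (R 4.3.3) was used with TMM scaling, filterByExpr (minimum count 10) and the quasi-likelihood test, 1 coefficient per genotype over all 12 libraries of a day, and Benjamini-Hochberg adjustment. A gene was called at an adjusted p under 0.05 and over 2-fold. The scripts were tested on simulated data. DESeq2 1.42.0, other scalings, filters, line choices, sample sets, a block and leaving out each replicate were the alternatives. Same clones at D0 and D6 deviated together (r = 0.106 to 0.175), so a clone block was also fitted for the difference between days.

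Members and lists were chosen with earlier results of these data known. Named were, per list and direction, up to 4 called genes with the largest change, the 12 largest changes with at least 5 CPM and no overlap, the 10 largest CPM differences, and Tet1, Tet2, Tet3, Pou5f1, Nanog, Sall4, Gata6, Cdx2 and T. Other called genes (such as Mixl1, Eomes, Gata4, Foxa2, Wnt3, Axin2, Tnnt2, Tap1, Psmb8, B2m), 7 further lists and the promoter motif were chosen after values were seen. Some genes are not reported here.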

Additional observations from a re-analysis of the deposited data

Results flagged for a closer look

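The Tet2-/- effect at D6 was compared with that at D0 by a test of the difference itself (edgeR's quasi-likelihood test over all 24 libraries). It was higher at D6 for 554 genes (3.54% of 15639) and lower for 803 (5.13%). Of the 113 genes given with values in the text, 26 passed in the higher and 29 in the lower direction, and their values are the D6 log2 fold change minus the D0 log2 fold change. The genes were named for their D6 difference, so their number is no result. In the higher direction these differences were Tet2 2.3, Tcl1 2.43, Nr0b1 2.46, Nr5a2 1.94, Pou5f1 1.22, L1td1 2.32, Dppa2 2.97, Dppa4 1.87, Zfp42 2.06, Foxd3 3.09, Pou3f1 1.89, Tcf15 2.35, Msc 3.48, Pax6 4.32, Tubb3 2.6, Ngfr 1.85, Inhbb 3.62, Spry4 2.39, Fgf15 2.59, Gbx2 3.45, Dnmt3a 1.19, Ddx4 1.71, Enox1 3.63, Cdh9 3.1, Bnc2 3.03 and Dhx9 1.06. In the lower direction they were Hand1 -6.3, Pdgfra -6.17, Kdr -6.07, Eomes -1.84, Myh9 -1.44, Sox17 -7.14, Gata4 -3.86, Krt8 -3.62, Krt18 -2.59, Dsp -1.83, Msx2 -4.01, Axin2 -1.78, Tgfb1 -3.26, Tgfb2 -3.48, Fgf10 -6.31, Socs3 -1.94, Snai1 -3.5, Col1a1 -3.95, Nrp1 -6.7, Igf2 -4.26, H19 -2.24, Peg3 -3.54, Zim1 -3.87, Igfbp3 -2.57, Tap1 -1.99, Stat2 -1.33, Gadd45b -1.48, Txnip -2.74 and Capn6 -6.64. Groups of 3 and 2 libraries are too small for a search for single outlying samples.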

How the results depend on the processing

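With all libraries kept, the D6 counts lay between 672 and 833 higher and 1424 and 1575 lower over 8 alternatives, and 94 of the 95 called genes given with values in the text were called under each; Dppa3 was lost with the replicate block. Some genes that the report gives as not called were called: Tet1, Sox2 and Esrrb without the filter, Tet1 and Zfp42 with DESeq2 or the Tet2-/- and WT libraries alone, Sox2, Zfp42 and Stat2 with the replicate block, and Dnmt3a, near the 2-fold limit, under 7 alternatives with all libraries. Replicate numbers did not pair the D6 libraries (r = -0.0461 and -0.0990); the replicate block gave 833 and 1438 calls, and 113 and 276 at D0. The clone block gave 799 and 1001 for the difference between days. Without the other genotypes D0 had 178 genes higher. Leaving out each replicate gave 0 to 1037 higher and 0 to 1598 lower at D6, 1 to 186 and 4 to 404 at D0, and 1 to 806 and 3 to 954 for the difference between days, where a clone left out at both days gave 15 and 31 without Tet2-/- replicate 2, 329 and 503 without WT replicate 2 and 119 and 236 without WT replicate 3. The lowest counts came without a Tet2-/- replicate, which leaves 1 library in that group. Of the 95 named calls, 27 were kept without Tet2-/- replicate 1, 0 without replicate 2, and 94, 80 and 78 without WT replicates 1, 2 and 3. Among genes not called, log2 fold changes turned sign when 1 library was left out: Sall4 from -0.13 to 0.11, Fgf5 from -0.43 to 0.13, Otx2 from -0.77 to 0.16, Cdh1 from -0.032 to 0.16, Id1 from -0.23 to 0.31, Meg3 from -0.39 to 0.042, Mki67 from -0.10 to 0.016. Id1 was -0.016 under library totals without scaling. The cause was not tested.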
